A study of Homo sapiens with 14 samples.

Results

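The 37 genes described here belong to glycolysis and to the transcriptional response to low oxygen. They were chosen by symbol from the 19410 genes of an RNA-Seq table of MDA-MB-231 cells, an established mesenchymal triple-negative breast cancer cell line, and all 37 were present and passed the filter on low values. The table held 7 groups with 2 libraries each, which were unedited parental cells and 6 lines edited with CRISPR/Cas9 from them. The genes targeted were SAP30 in SAP30-KO1 and SAP30-KO2, SIN3A together with SIN3B in SIN3A+SIN3B-DKO1 and SIN3A+SIN3B-DKO2, and MLL1 in MLL1-KO1 and MLL1-KO2. Each line was a mixture of several single knockout cells that had been expanded, and the parental controls carried no edit. All cells were grown in medium with serum in an incubator with CO2 and air, and the labels give no treatment for any group. The study names a high-glucose medium or another medium for several cell lines together, and does not say which one these cells had. The edited lines had been selected with puromycin while they were made, and no such step is described for the parental cells, so past selection and the edits cannot be told apart. The members fall into a glycolysis class of 21 genes, a hypoxia class of 14 other genes induced by low oxygen, and the genes of 2 HIF alpha subunits.

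Hypoxia-inducible factors (HIFs) are dimers of an oxygen-sensitive alpha subunit, HIF1A or EPAS1 (HIF2A), and a stable beta subunit. When oxygen is present, prolyl hydroxylases such as EGLN1 mark the alpha subunit for degradation, and when oxygen is low, the dimer binds DNA and activates genes for glucose uptake, glycolysis, pH control, mitophagy, and collagen modification. Many cancer cells run glycolysis strongly even in air, and MDA-MB-231 cells are known for high glycolysis. SIN3A and SIN3B are the scaffolds of the SIN3 histone deacetylase complex, SAP30 is one of its core subunits, and MLL1 (KMT2A) is a histone H3 lysine methyltransferase.

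HIF dimers recognise a short element whose core letters are often ACGTG, the only form searched here. The promoters of 5 members are shown as examples of members that moved in the lines and carry ACGTG before their start site. Other members that moved carry it too, such as HK2 and ALDOC, or have no match, such as CA12 and EGLN3. Capitals mark ACGTG on either strand (CACGT when it lies on the other strand). The letters of 2 matches that overlap, as in CACGTG, were joined into 1 stretch. The sequences are from RefSeq, run 5′ to 3′ along the gene's strand, and end at the base before the annotated start site.
PGK1 (GRCh38.p14, chrX:78104036-78104247, plus strand): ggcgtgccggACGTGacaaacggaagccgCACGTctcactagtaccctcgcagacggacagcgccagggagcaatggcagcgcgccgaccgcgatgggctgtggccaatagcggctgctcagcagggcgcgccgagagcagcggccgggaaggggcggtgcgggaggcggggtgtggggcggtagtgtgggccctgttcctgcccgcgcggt
LDHA (GRCh38.p14, chr11:18394368-18394562, plus strand): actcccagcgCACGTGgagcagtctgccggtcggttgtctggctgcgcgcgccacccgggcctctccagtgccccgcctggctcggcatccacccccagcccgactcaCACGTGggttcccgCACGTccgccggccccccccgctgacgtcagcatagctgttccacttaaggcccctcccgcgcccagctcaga
CA9 (GRCh38.p14, chr9:35673900-35673927, plus strand): gtttccaatgCACGTacagcccgtacac
P4HA1 (GRCh38.p14, chr10:73096867-73096962, minus strand): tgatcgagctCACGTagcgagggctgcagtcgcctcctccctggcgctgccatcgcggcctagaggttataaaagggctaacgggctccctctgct
PLOD2 (GRCh38.p14, chr3:146161185-146161394, minus strand): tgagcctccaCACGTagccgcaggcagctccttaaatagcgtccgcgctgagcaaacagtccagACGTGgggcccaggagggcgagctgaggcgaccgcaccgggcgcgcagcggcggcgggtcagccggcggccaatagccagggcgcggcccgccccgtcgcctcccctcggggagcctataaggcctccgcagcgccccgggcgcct
PGK1 and LDHA encode glycolytic enzymes, CA9 encodes a carbonic anhydrase, and P4HA1 and PLOD2 encode collagen hydroxylases. The printed sequences hold 2, 3, 1, 1, and 2 stretches in capitals, respectively. Over windows of 300 bases, from 250 bases before the start to 50 after it, ACGTG on either strand stood in 27 of the 60 windows of 34 members (45.0%) and in 7518 of all 35116 windows of the table (21.4%). Counted by gene, with a match in any of its windows, 13 of 20 glycolysis class members, 8 of 12 hypoxia class members, and 0 of 2 HIF alpha subunit genes had one. Of all 27305 genes with a window, 6790 did (24.9%). No window was at hand for SLC2A3, BNIP3L, and NDRG1. A match is a description of the letters and not of a bound site.

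The libraries held 18415036 to 23162682 reads, and their values are TPM, transcript abundances corrected for gene length and scaled to the same total in every library. Markers of the cell line were high in all libraries, VIM at 5741 to 8805 TPM and AXL at 711 to 1003 TPM, with CD44, EGFR, CAV1, and MSN at 96.1 TPM or more. Of the luminal and epithelial markers, ESR1, PGR, and CDH1 did not exceed 0.191, 0.139, and 1.25 TPM, whereas GATA3 was at 8.16 to 17.3 TPM, EPCAM at 5.33 to 19.2 TPM, and ERBB2 at 21.9 to 42.8 TPM. Of the markers of other cell types, PTPRC of leukocytes, ALB of liver, and CDH5 of endothelium reached at most 0.603, 0.263, and 0.0337 TPM, and PECAM1, also of endothelium, was at 1.55 to 3.97 TPM in all libraries. Their part in the results was not tested. SAP30 fell in both SAP30-KO lines with log2 changes of -4.38 and -4.27. KMT2A, listed as MLL, fell in the MLL1-KO lines, with -1.64 and -0.97, and also in the SAP30-KO lines, with -0.95 and -0.65. In the libraries labelled SIN3A+SIN3B-DKO1 and SIN3A+SIN3B-DKO2, SIN3B fell, with -0.61 and -0.71, but SIN3A was not lower, with log2 changes of 0.47 and 0.32. An edit can stop a protein without lowering its mRNA, so these lines are named here by their labels.

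In the parental cells, the glycolytic enzymes spanned a wide range of levels. GAPDH was the most abundant member at 4929.7 and 4879.9 TPM, followed by LDHA at 1938 and 1984 TPM and ENO1 at 1673 and 1704 TPM. The 16 glycolytic enzymes together made up 1.25% and 1.27% of all TPM in the parental libraries. The 14 hypoxia class genes made up 0.0969% and 0.0964%. CA9 and ALDOC were the members with the fewest reads, with 16 and 10 reads and 24 and 28 reads.

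Against parental cells, members of both classes moved most in the MLL1-KO lines and in few numbers in the SAP30-KO and SIN3A+SIN3B-DKO lines. A member is said to have risen or fallen when limma's adjusted p was under 0.05 and the change was at least 1.5-fold, with fold changes on the log2(TPM + 0.5) scale. In MLL1-KO1, 15 of 37 members rose (40.5%, beside 6.89% of the 13540 genes tested) and 5 fell (13.5%, beside 16.3%). In MLL1-KO2, 10 rose (27.0%, beside 10.2%) and 6 fell (16.2%, beside 14.9%). The fallen shares were thus near those of all genes, whereas the risen shares were above them. Because these are bulk RNA from mixtures of clones, fewer cells that express a gene and less RNA per cell cannot be told apart.

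In SAP30-KO1, 6 members rose (16.2%, beside 7.8%) and 1 fell (2.7%, beside 7.86%). In SAP30-KO2, 5 rose (13.5%, beside 7.44%) and 2 fell (5.41%, beside 8.12%). In SIN3A+SIN3B-DKO1, 3 rose (8.11%, beside 7.76%) and 4 fell (10.8%, beside 8.66%), which were shares near the background. In SIN3A+SIN3B-DKO2, 5 fell (13.5%, beside 7.56%) and 0 rose by limma, beside 6.0% of all genes. Of the members with a positive change in that line, 4 had limma's adjusted p under 0.05 but stayed under 1.5-fold, the largest log2 change being 0.49. By limma's voom on recovered reads, 0 rose.

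Both SAP30-KO lines shared 5 members that rose (6.17% of all genes did) and 1 that fell (6.79%). Both SIN3A+SIN3B-DKO lines shared 3 that fell (5.99%) and 0 that rose (4.7%). Both MLL1-KO lines shared 8 that rose (5.0%) and 5 that fell (11.4%). All lines were compared with the same 2 parental libraries, so these counts are not independent of each other. Of the 37 members, 12 passed in no line, namely HK1, GPI, PFKL, PFKM, PFKP, ALDOA, PGAM1, ENO1, LDHB, PDK1, EGLN1, and LOX.

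**Figure D1:**
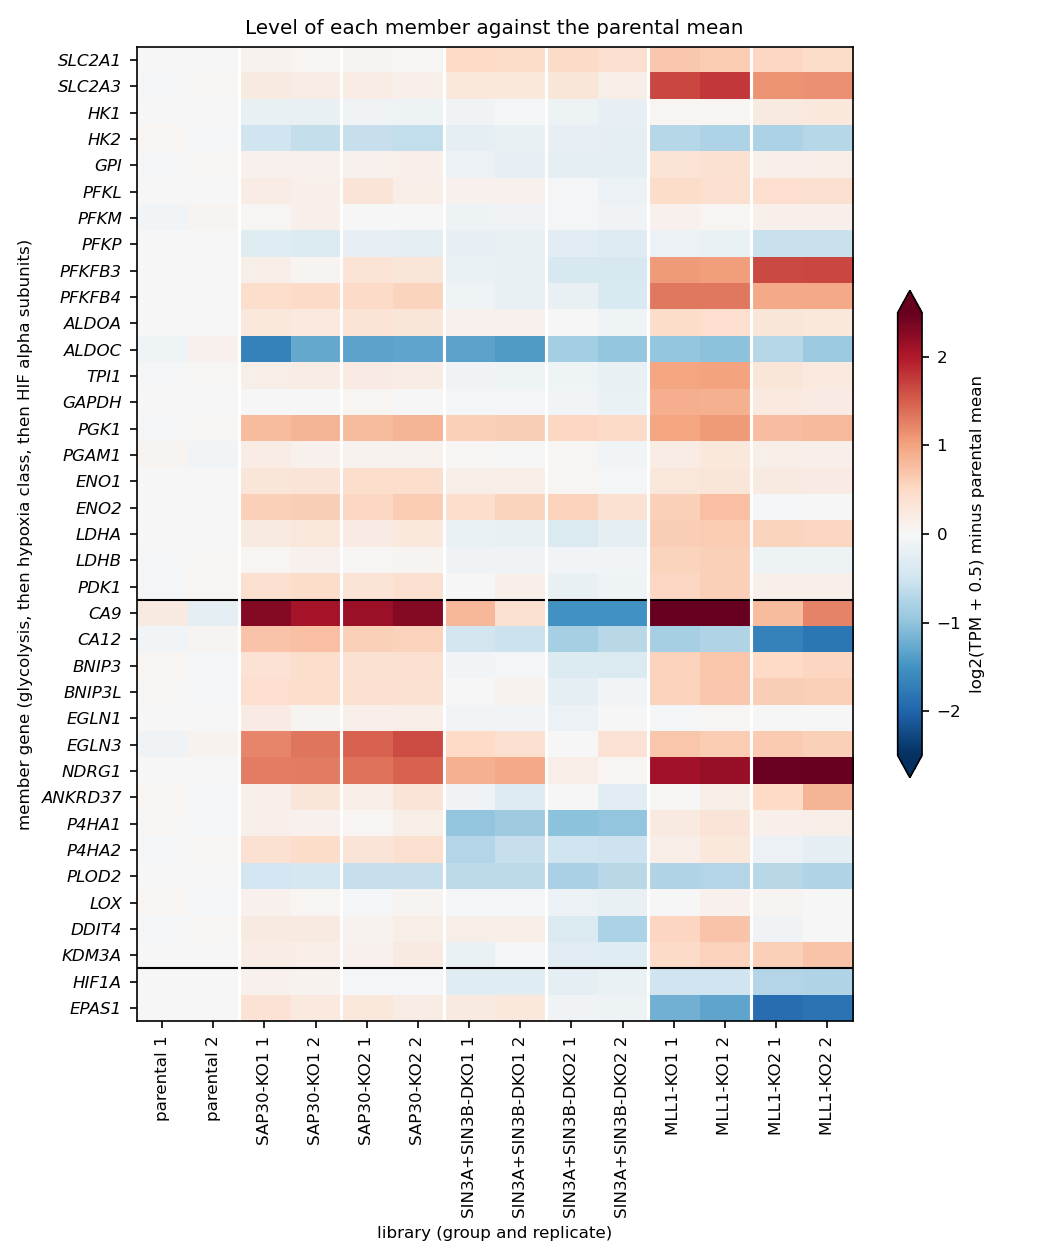
Heat map of the 37 members (rows) in the 14 libraries (columns), with colour giving log2(TPM + 0.5) minus the mean of the parental libraries, and values beyond 2.5 drawn in the end colour. Black lines separate the glycolysis class, the hypoxia class, and the HIF alpha subunits. SLC2A3, PFKFB3, PFKFB4, and NDRG1 are red in the 4 MLL1-KO libraries, ALDOC is blue in all 12 edited libraries, and P4HA1 is blue only in the 4 SIN3A+SIN3B-DKO libraries.

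The glycolysis class and the hypoxia class had different medians in several lines, given as a description. The median log2 change of the glycolysis class was 0.15 in each of the SAP30-KO lines, and that of the hypoxia class was 0.32 and 0.30, while all genes tested had medians of 0.03 and 0.01. In SIN3A+SIN3B-DKO1 the class medians were -0.07 and -0.06 beside 0.00 for all genes. In SIN3A+SIN3B-DKO2 they were -0.12 for glycolysis and -0.32 for hypoxia beside 0.01. MLL1-KO1 had medians of 0.56 for glycolysis and 0.40 for hypoxia beside -0.09, and MLL1-KO2 had 0.23 and 0.33 beside -0.04. Thus the hypoxia class was the higher of the 2 in both SAP30-KO lines and in MLL1-KO2, and glycolysis was the higher in MLL1-KO1 and SIN3A+SIN3B-DKO2.

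The counts of members that passed are given by class. In the SAP30-KO lines, 4 of 14 hypoxia class genes rose in each (28.6%), against 2 and 1 of 21 glycolysis genes (9.52% and 4.76%). Of all genes tested, 7.8% and 7.44% rose there, so the glycolysis shares were near the background. In SIN3A+SIN3B-DKO1, 3 hypoxia class genes fell (21.4%) and 2 rose (14.3%), and 1 glycolysis gene moved in each direction (4.76%). Of all genes, 8.66% fell and 7.76% rose there. In SIN3A+SIN3B-DKO2, 4 hypoxia class genes (28.6%) and 1 glycolysis gene (4.76%) fell, beside 7.56% of all genes. In MLL1-KO1, 9 of 21 glycolysis genes (42.9%) and 6 of 14 hypoxia class genes (42.9%) rose, beside 6.89% of all genes. In MLL1-KO2, 4 (19.0%) and 6 (42.9%) did, beside 10.2%. With the median change of neighbouring genes subtracted, as described below, 12 members rose in MLL1-KO1. SLC2A1, TPI1, GAPDH, ENO2, and EGLN3 no longer passed there, and PDK1 and KDM3A then did. Quantile normalization moved the median of all genes by 0.15 on the log2 scale in MLL1-KO1 and by 0.06 in MLL1-KO2, and no member changed direction among those that passed.

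**Figure D2:**
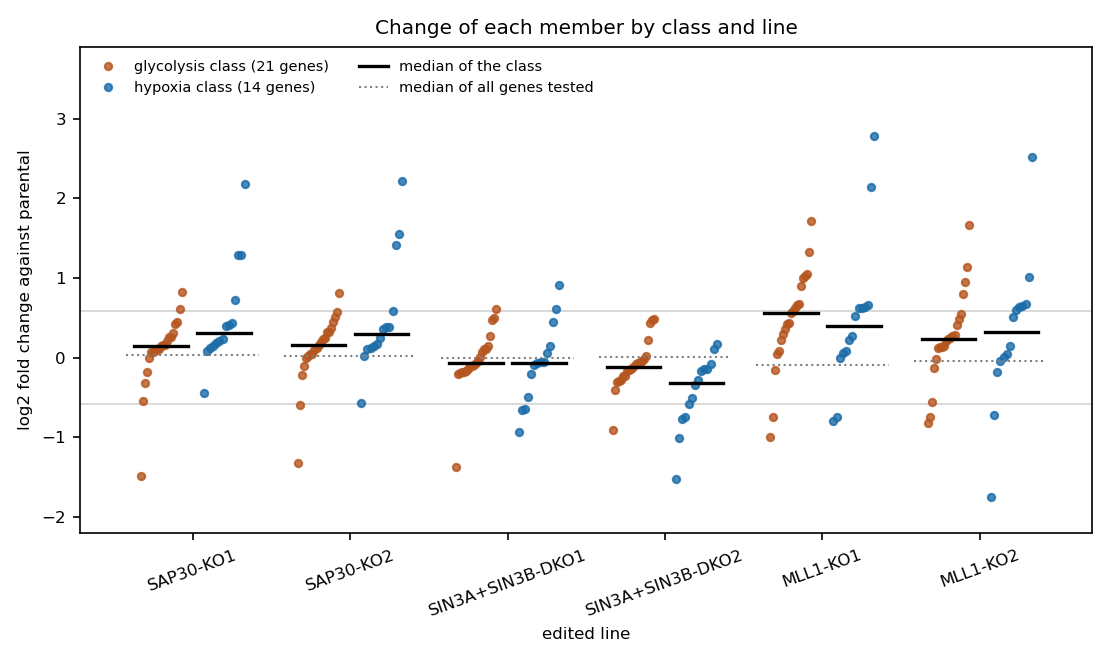
Log2 fold change against parental cells (y axis) of each glycolysis class gene (21 orange points) and each hypoxia class gene (14 blue points) in the 6 edited lines (x axis). Black bars are class medians, dotted lines the median of all genes tested, and pale lines mark 1.5-fold. The class medians in MLL1-KO1, 0.56 and 0.40, lie well above the dotted line at -0.09, while those in SIN3A+SIN3B-DKO1 lie next to it.

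Glucose enters cells through transporters, of which SLC2A1 (GLUT1) and SLC2A3 (GLUT3, of high affinity) were measured. SLC2A3 rose in both MLL1-KO lines. Its levels were 27.97 and 29.1 TPM in parental cells, 33.6 and 32.6 for SAP30-KO1, 32.5 and 31.03 for SAP30-KO2, 34.5 and 34.5 for SIN3A+SIN3B-DKO1, 35.1 and 31.8 for SIN3A+SIN3B-DKO2, 92.4 and 97.9 for MLL1-KO1, and 62.6 and 63.9 for MLL1-KO2. The 4 MLL1-KO libraries were all above the other 10, which lay between 27.97 and 35.1 TPM. SLC2A3 was 3.29-fold higher in MLL1-KO1, a log2 change of 1.72 ± 0.05 (SE, adjusted p = 8.27e-10), and 2.198-fold higher in MLL1-KO2, at 1.14 ± 0.05 (SE, adjusted p = 1.43e-08). SLC2A1 ranged from 282 to 455 TPM. It rose in MLL1-KO1, by 0.66 ± 0.03, and stayed under 1.5-fold in MLL1-KO2 and in the SIN3A+SIN3B-DKO lines, with changes of 0.48, 0.48, and 0.44. SLC2A3 shares long stretches with its paralog SLC2A14, and how the authors' counting treated shared reads is not given in the sources used here.

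Hexokinase traps glucose in the cell by phosphorylation, and HK2 is its hypoxia-induced form. HK2 fell in both MLL1-KO lines. Its levels were 106 and 99.3 TPM in parental cells, 72.1 and 67.6 for SAP30-KO1, 68.3 and 67.05 for SAP30-KO2, 88.1 and 90.4 for SIN3A+SIN3B-DKO1, 88.3 and 86.6 for SIN3A+SIN3B-DKO2, 62.7 and 59.6 for MLL1-KO1, and 58.9 and 62.7 for MLL1-KO2. All edited libraries were below the parental ones, and those of MLL1-KO and SAP30-KO were lowest. HK2 changed by -0.74 ± 0.05 (SE, adjusted p = 2.17e-07) in MLL1-KO1 and by -0.75 ± 0.05 (SE, adjusted p = 1.72e-07) in MLL1-KO2. In SAP30-KO2 it fell by 0.60, and in SAP30-KO1 its change of -0.55 was just under 1.5-fold. Without parental replicate 1 or without SAP30-KO2 replicate 2 the change in SAP30-KO2 was -0.55 or -0.58, which left 1 fallen member instead of 2 in that line. Without parental replicate 2 or SAP30-KO1 replicate 1, HK2 passed in SAP30-KO1 too, at -0.59 or -0.60, and 2 members fell there. HK1, the housekeeping form, ranged from 163 to 227 TPM and passed in no line.

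The steps from phosphofructokinase to aldolase gave 1 member that passed. PFKP, the main phosphofructokinase here, ranged from 260.4 to 386 TPM, PFKL from 50.9 to 76.7 TPM, PFKM from 45.2 to 53.9 TPM, GPI from 154 to 234 TPM, and ALDOA from 559 to 824 TPM, and each stayed under 1.5-fold in every line. PFKP came nearest in MLL1-KO2, with -0.55 ± 0.03. ALDOC, a minor aldolase, fell in all 6 lines. It stood at 2.02 and 2.42 TPM in parental cells, 0.337 and 0.625 for SAP30-KO1, 0.5799 and 0.591 for SAP30-KO2, 0.5705 and 0.523 for SIN3A+SIN3B-DKO1, 1.01 and 0.882 for SIN3A+SIN3B-DKO2, 0.892 and 0.8296 for MLL1-KO1, and 1.16 and 0.927 for MLL1-KO2. Every edited library was below both parental libraries. The log2 changes were -1.48 and -1.32 in the SAP30-KO lines, -1.38 and -0.91 in the SIN3A+SIN3B-DKO lines, and -0.997 and -0.82 in the MLL1-KO lines, each ± 0.18 (SE), with adjusted p values from 4.98e-05 to 0.00218. These levels rest on 24 and 28 reads in the parental libraries and 4 to 14 reads in the edited ones.

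PGK1, the first enzyme of glycolysis that yields ATP, whose promoter with its 2 ACGTG stretches is printed above, was the glycolytic enzyme that rose in most lines. Its levels were 603 and 622 TPM in parental cells, 1057 and 1107 for SAP30-KO1, 1056 and 1097 for SAP30-KO2, 923 and 941 for SIN3A+SIN3B-DKO1, 872 and 849 for SIN3A+SIN3B-DKO2, 1212 and 1282 for MLL1-KO1, and 1045 and 1077 for MLL1-KO2. All 12 edited libraries were above the parental pair. PGK1 changed by 0.82 ± 0.04 in SAP30-KO1, 0.81 ± 0.04 in SAP30-KO2, 0.61 ± 0.04 in SIN3A+SIN3B-DKO1, 1.03 ± 0.04 in MLL1-KO1, and 0.79 ± 0.04 in MLL1-KO2 (SE), with adjusted p values of at most 3.04e-07. In SIN3A+SIN3B-DKO2 it did not reach 1.5-fold, at 0.49. Without parental replicate 1, the change in SIN3A+SIN3B-DKO1 was 0.58, also under 1.5-fold.

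Genes that lie next to PGK1 on chromosome X were higher too. The median log2 change of the 51 tested genes around it was 0.57 and 0.55 in the SAP30-KO lines, 0.47 and 0.54 in the SIN3A+SIN3B-DKO lines, and 0.31 and 0.38 in the MLL1-KO lines. With that median subtracted, PGK1 changed by 0.26 and 0.26 in SAP30-KO1 and SAP30-KO2, by 0.14 in SIN3A+SIN3B-DKO1, and by 0.41 in MLL1-KO2, none of which reached 1.5-fold. In MLL1-KO1 it still passed at 0.72. The neighbours of SLC2A1 on chromosome 1 had medians of 0.27 to 0.54 in the 6 lines, and its change in MLL1-KO1 was 0.39 once these were subtracted. The neighbours of ALDOC on chromosome 17 had medians of -0.53 to -0.32. After subtraction ALDOC passed in 3 lines, at -1.16, -0.96, and -0.94 in SAP30-KO1, SAP30-KO2, and SIN3A+SIN3B-DKO1.

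GAPDH, which oxidises the triose phosphate, TPI1, which interconverts the triose phosphates, and ENO2, the neuronal enolase, rose in MLL1-KO1 and not in MLL1-KO2. GAPDH was at 4929.7 and 4879.9 TPM in parental cells, 4914 and 4864 for SAP30-KO1, 5064 and 4895 for SAP30-KO2, 4803 and 4725 for SIN3A+SIN3B-DKO1, 4671 and 4389 for SIN3A+SIN3B-DKO2, 9161 and 9089.6 for MLL1-KO1, and 5807 and 5683 for MLL1-KO2. TPI1 was at 522 and 541 TPM in parental cells, 584 and 605 for SAP30-KO1, 609 and 605 for SAP30-KO2, 498 and 492 for SIN3A+SIN3B-DKO1, 497 and 467 for SIN3A+SIN3B-DKO2, 1048 and 1070.0 for MLL1-KO1, and 655 and 631 for MLL1-KO2. Both genes stood apart in the MLL1-KO1 libraries, 1.86-fold and 1.99-fold higher than in parental cells, the MLL1-KO2 libraries were above the parental pair by less, and TPI1 was also slightly above it in the SAP30-KO libraries. GAPDH changed by 0.90 ± 0.03 (SE, adjusted p = 1.67e-09) in MLL1-KO1 and by 0.23 ± 0.03 in MLL1-KO2, and TPI1 by 0.99 ± 0.03 (SE, adjusted p = 1.96e-09) and 0.27 ± 0.03. The lines themselves differed by 0.67 ± 0.03 for GAPDH and 0.72 ± 0.03 for TPI1. GAPDH has many processed pseudogenes that could take up some of its reads.

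ENO2 was at 52.3 and 51.5 TPM in parental cells, 79.04 and 79.99 for SAP30-KO1, 74.2 and 80.8 for SAP30-KO2, 70.8 and 76.4 for SIN3A+SIN3B-DKO1, 77.3 and 67.4 for SIN3A+SIN3B-DKO2, 78.9 and 87.9 for MLL1-KO1, and 51.1 and 51.5 for MLL1-KO2. It was higher than in parental cells in all lines but MLL1-KO2. The change passed in SAP30-KO1, at 0.61 ± 0.07, and in MLL1-KO1, at 0.68 ± 0.07, and was 0.57, 0.50, 0.47, and -0.02 in SAP30-KO2, SIN3A+SIN3B-DKO1, SIN3A+SIN3B-DKO2, and MLL1-KO2. In SAP30-KO1 the change was 0.51 with neighbours subtracted and 0.57 with median ratio scaling, under 1.5-fold. Without SAP30-KO2 replicate 1, ENO2 also passed in SAP30-KO2, at 0.63. LDHB, which favours the turn of lactate to pyruvate, was at 1144 and 1205 TPM in parental cells, 1219 and 1268 for SAP30-KO1, 1204 and 1225 for SAP30-KO2, 1107 and 1104 for SIN3A+SIN3B-DKO1, 1116 and 1125 for SIN3A+SIN3B-DKO2, 1732 and 1786 for MLL1-KO1, and 1069 and 1079 for MLL1-KO2. Its libraries in MLL1-KO1 were above the other 12. The change of 0.58 in MLL1-KO1 was just under 1.5-fold and passed without parental replicate 2 or MLL1-KO1 replicate 1, at 0.62 or 0.60. LDHB differed between the MLL1-KO lines by 0.71 ± 0.03 (adjusted p = 5.01e-08), and ENO2 by 0.69 ± 0.07 (adjusted p = 2.36e-05).

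GAPDH, TPI1, ENO2, SLC2A3, and LDHB lie on chromosome 12, between positions 6643678 and 21910791 of GRCh37, and their neighbours were also higher in MLL1-KO1. The neighbours' median log2 change in that line was 0.45 around GAPDH, 0.51 around TPI1, 0.53 around ENO2, 0.56 around SLC2A3, and 0.41 around LDHB. In MLL1-KO2 these medians lay between -0.14 and 0.13. With the neighbours subtracted, the MLL1-KO1 changes were 0.45, 0.48, 0.14, and 0.17 for GAPDH, TPI1, ENO2, and LDHB, all under 1.5-fold, while SLC2A3 still passed at 1.16 in MLL1-KO1 and 1.01 in MLL1-KO2. PFKM, on the other arm of the chromosome, had a neighbour median of -0.12 in MLL1-KO1.

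**Figure D3:**
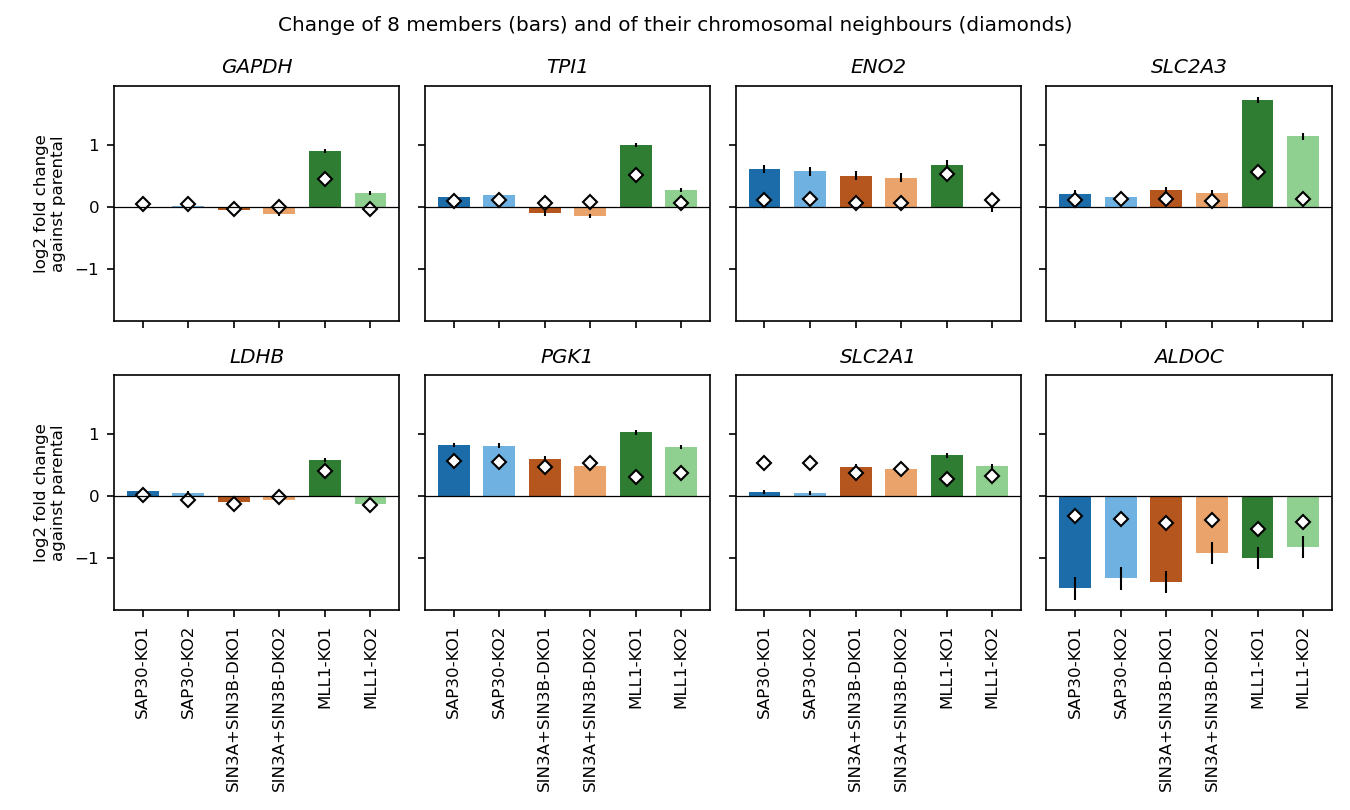
Bars give the log2 fold change against parental cells of 8 members in the 6 edited lines, with standard errors, and diamonds give the median change of the 51 tested genes around each member on its chromosome. For GAPDH, TPI1, ENO2, SLC2A3, and LDHB the diamonds are raised in MLL1-KO1, at 0.41 to 0.56, against -0.14 to 0.13 in MLL1-KO2. For PGK1 and SLC2A1 they are raised in every line, and for ALDOC they are below 0 in every line.

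LDHA, which turns pyruvate into lactate and whose promoter held 3 ACGTG stretches, ranged from 1533 to 3062 TPM. It rose in MLL1-KO1, by 0.63 ± 0.04 (SE, adjusted p = 1.13e-07), and its change of 0.55 in MLL1-KO2 was just under 1.5-fold. With quantile normalization the MLL1-KO1 change was 0.53. Its neighbours had medians of -0.24 and -0.22 in the MLL1-KO lines, so that LDHA moved against them. ENO1, the main enolase, ranged from 1664 to 2299.9 TPM and PGAM1 from 120.3 to 151 TPM, and both stayed under 1.5-fold in each line. Added together, the 16 glycolytic enzymes took 2.02% and 2.04% of all TPM in the MLL1-KO1 libraries and 1.52% and 1.51% in the MLL1-KO2 libraries, against 1.25% and 1.27% in parental cells, and in the other lines from 1.17% to 1.44%. Without GAPDH the shares were 1.105% and 1.13% in MLL1-KO1 against 0.762% and 0.7798% in the parental pair.

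PFKFB3 and PFKFB4 make the sugar bisphosphate that activates phosphofructokinase, and both rose in both MLL1-KO lines. PFKFB3 was at 60.9 and 60.3 TPM in parental cells, 67.5 and 63.4 for SAP30-KO1, 77.2 and 74.8 for SAP30-KO2, 54.2 and 53.2 for SIN3A+SIN3B-DKO1, 45.7 and 45.9 for SIN3A+SIN3B-DKO2, 127 and 126 for MLL1-KO1, and 192 and 195 for MLL1-KO2. PFKFB4 was at 19.6 and 19.96 TPM in parental cells, 26.9 and 27.6 for SAP30-KO1, 27.6 and 29.2 for SAP30-KO2, 18.4 and 17.4 for SIN3A+SIN3B-DKO1, 17.2 and 15.1 for SIN3A+SIN3B-DKO2, 50.01 and 50.2 for MLL1-KO1, and 38.6 and 38.5 for MLL1-KO2. In both genes the 4 MLL1-KO libraries were above the other 10, PFKFB3 highest in MLL1-KO2 and PFKFB4 highest in MLL1-KO1. PFKFB3 changed by 1.05 ± 0.04 (SE, adjusted p = 1.74e-09) in MLL1-KO1 and 1.67 ± 0.04 (SE, adjusted p = 4.45e-11) in MLL1-KO2, and the lines differed by -0.62 ± 0.04 (adjusted p = 4.16e-07). PFKFB4 changed by 1.32 ± 0.06 and 0.95 ± 0.06. Neither gene passed in another line, PFKFB4 having changes of 0.45 and 0.51 in the SAP30-KO lines. PDK1, the kinase that keeps pyruvate from the mitochondrial dehydrogenase, ranged from 9.66 to 17.01 TPM. Its change in MLL1-KO1 was 0.56, which passed without parental replicate 2 or MLL1-KO1 replicate 1, at 0.61 or 0.59.

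**Figure D4:**
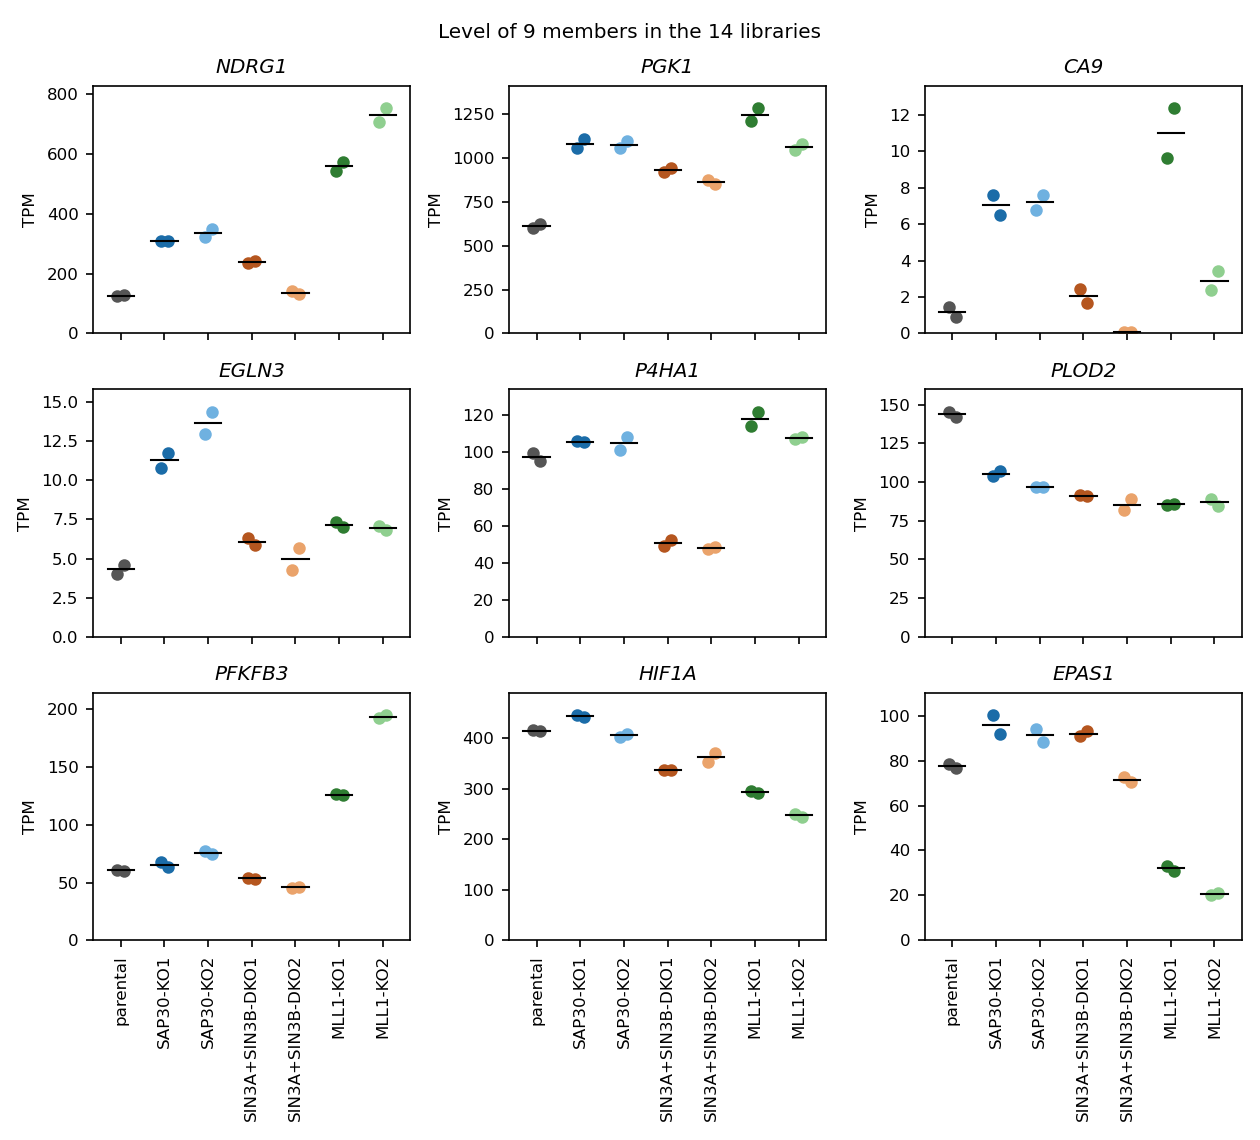
Level in TPM (y axis, from 0) of 9 members in the 7 groups (x axis), with a point for each library and a bar at the mean of the 2 libraries. NDRG1 and PFKFB3 are highest in MLL1-KO2, CA9 in MLL1-KO1, EGLN3 in the SAP30-KO lines, P4HA1 is lowest in the SIN3A+SIN3B-DKO lines, and EPAS1 is lowest in the MLL1-KO lines.

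CA9 and CA12 are carbonic anhydrases of the cell surface that help to export acid, and CA9 is a widely used marker of HIF activity. CA9 rose in both SAP30-KO and both MLL1-KO lines. It was at 1.43 and 0.919 TPM in parental cells, 7.602 and 6.47 for SAP30-KO1, 6.78 and 7.62 for SAP30-KO2, 2.42 and 1.67 for SIN3A+SIN3B-DKO1, 0.0764 and 0.0781 for SIN3A+SIN3B-DKO2, 9.63 and 12.3 for MLL1-KO1, and 2.38 and 3.404 for MLL1-KO2. The SAP30-KO and MLL1-KO libraries were all above the parental pair, and the SIN3A+SIN3B-DKO2 libraries were far below it. CA9 was 4.54-fold and 4.64-fold higher in SAP30-KO1 and SAP30-KO2, with log2 changes of 2.18 ± 0.21 (SE, adjusted p = 9.27e-06) and 2.21 ± 0.21 (SE, adjusted p = 7.8e-06). In MLL1-KO1 it was 6.89-fold higher, at 2.78 ± 0.21 (SE, adjusted p = 7.38e-07), and in MLL1-KO2 2.02-fold higher, at 1.02 ± 0.21 (SE, adjusted p = 0.00146).

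The CA9 values rest on few reads. The parental libraries held 16 and 10 reads and the SAP30-KO libraries 78 to 97, whereas SIN3A+SIN3B-DKO2 held 1 read in each library. The ratio of the parental to the SIN3A+SIN3B-DKO2 share of reads was 15.04, with an exact 95% counting interval of 3.77 to 131, and the fitted change of -1.52 (adjusted p = 0.000147) depends on the pseudocount. In SIN3A+SIN3B-DKO1, which held 32 and 21 reads, CA9 changed by 0.60 ± 0.21 (SE, adjusted p = 0.0307). That change was 0.38 without parental replicate 2 and 0.39 without SIN3A+SIN3B-DKO1 replicate 1, and did not pass then, nor with a pseudocount of 1, at 0.48, or by voom on the reads, at 0.82. The SIN3A+SIN3B-DKO lines differed by 2.12 ± 0.21 (adjusted p = 0.000164) and the MLL1-KO lines by 1.77 ± 0.21 (adjusted p = 6.92e-05).

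CA12 rose in the SAP30-KO lines and fell in SIN3A+SIN3B-DKO2 and in both MLL1-KO lines. Its levels were 35.6 and 39.4 TPM in parental cells, 61.4 and 63.5 for SAP30-KO1, 56.9 and 56.2 for SAP30-KO2, 27.2 and 25.7 for SIN3A+SIN3B-DKO1, 20.8 and 22.9 for SIN3A+SIN3B-DKO2, 20.9 and 21.96 for MLL1-KO1, and 11.3 and 10.3 for MLL1-KO2. Every SAP30-KO library was above the parental pair, and every SIN3A+SIN3B-DKO and MLL1-KO library was below it. CA12 changed by 0.73 ± 0.07 and 0.59 ± 0.07 in the SAP30-KO lines, -0.77 ± 0.07 in SIN3A+SIN3B-DKO2, -0.79 ± 0.07 in MLL1-KO1, and -1.75 ± 0.07 in MLL1-KO2 (SE). In SIN3A+SIN3B-DKO1 the change was -0.49. Without parental replicate 1 or SAP30-KO2 replicate 1, the change in SAP30-KO2 was 0.51 or 0.58, under 1.5-fold. Thus CA9 and CA12 moved in opposite directions in both MLL1-KO lines and in the same direction in both SAP30-KO lines.

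BNIP3 and BNIP3L (NIX) are receptors that tag mitochondria for removal by autophagy. BNIP3L rose in both MLL1-KO lines. It was at 74.4 and 71.5 TPM in parental cells, 97.7 and 99.3 for SAP30-KO1, 95.8 and 95.04 for SAP30-KO2, 73.6 and 77.9 for SIN3A+SIN3B-DKO1, 62.3 and 69.8 for SIN3A+SIN3B-DKO2, 109 and 117 for MLL1-KO1, and 112 and 110.3 for MLL1-KO2. The MLL1-KO libraries were highest, the SAP30-KO libraries lay between them and the parental pair, the SIN3A+SIN3B-DKO1 libraries overlapped the parental pair, and the SIN3A+SIN3B-DKO2 libraries lay below it. BNIP3L changed by 0.63 ± 0.06 (SE, adjusted p = 2.4e-06) in MLL1-KO1 and 0.60 ± 0.06 (SE, adjusted p = 3.02e-06) in MLL1-KO2. These changes were 0.58 without MLL1-KO1 replicate 2 and 0.57 without parental replicate 2, under 1.5-fold. BNIP3 ranged from 108 to 226 TPM and rose in MLL1-KO1, by 0.63 ± 0.04, or 0.57 without MLL1-KO1 replicate 2. Its other changes were 0.40 and 0.39 in the SAP30-KO lines, -0.05 and -0.35 in the SIN3A+SIN3B-DKO lines, and 0.51 in MLL1-KO2.

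EGLN3 is a HIF prolyl hydroxylase that HIF itself induces, whereas EGLN1 is the main oxygen sensor. EGLN3 rose in the SAP30-KO and MLL1-KO lines. It was at 4.04 and 4.62 TPM in parental cells, 10.8 and 11.7 for SAP30-KO1, 12.97 and 14.4 for SAP30-KO2, 6.31 and 5.85 for SIN3A+SIN3B-DKO1, 4.28 and 5.66 for SIN3A+SIN3B-DKO2, 7.3001 and 6.999 for MLL1-KO1, and 7.11 and 6.802 for MLL1-KO2. All SAP30-KO libraries were far above the parental pair, the MLL1-KO libraries lay between these and the parental pair, and SIN3A+SIN3B-DKO2 overlapped the parental pair. EGLN3 changed by 1.29 ± 0.12 (SE, adjusted p = 6.86e-06) in SAP30-KO1, 1.55 ± 0.12 (SE, adjusted p = 1.64e-06) in SAP30-KO2, 0.67 ± 0.12 (SE, adjusted p = 0.000591) in MLL1-KO1, and 0.63 ± 0.12 (SE, adjusted p = 0.0008) in MLL1-KO2. Without parental replicate 1 the MLL1-KO changes were 0.58 and 0.54, under 1.5-fold. The neighbours of EGLN3 had medians of 0.10 to 0.32 over the 6 lines, and with these subtracted it passed in the SAP30-KO lines and not in the MLL1-KO lines. EGLN1 ranged from 35.6 to 45.6 TPM and passed in no line.

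NDRG1, a stress-response gene that low oxygen induces, had the largest change among members with more than a few TPM. It was at 125 and 128 TPM in parental cells, 309 and 310.0 for SAP30-KO1, 324 and 350.2 for SAP30-KO2, 234 and 243 for SIN3A+SIN3B-DKO1, 142 and 131 for SIN3A+SIN3B-DKO2, 544 and 572 for MLL1-KO1, and 706 and 752 for MLL1-KO2. The MLL1-KO libraries were highest, and the SAP30-KO and SIN3A+SIN3B-DKO1 libraries were also all above the parental pair. NDRG1 was 4.399-fold and 5.74-fold higher in MLL1-KO1 and MLL1-KO2, with log2 changes of 2.14 ± 0.05 (SE, adjusted p = 1.32e-10) and 2.52 ± 0.05 (SE, adjusted p = 2.68e-11). In the SAP30-KO lines it rose by 1.29 ± 0.05 and 1.41 ± 0.05, and in SIN3A+SIN3B-DKO1 by 0.91 ± 0.05. In SIN3A+SIN3B-DKO2 the change was 0.11 ± 0.05 (adjusted p = 0.107), and the SIN3A+SIN3B-DKO lines differed by 0.81 ± 0.05 (adjusted p = 5.66e-06). Its neighbours on chromosome 8 had medians of 0.16 to 0.29, and with these subtracted NDRG1 changed by 1.001 and 1.13 in the SAP30-KO lines, 0.72 in SIN3A+SIN3B-DKO1, and 1.98 and 2.23 in the MLL1-KO lines.

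ANKRD37, an ankyrin repeat gene induced by HIF, and DDIT4 (REDD1), an inhibitor of mTOR signalling, each rose in 1 MLL1-KO line. ANKRD37 was at 10.6 and 9.94 TPM in parental cells, 11.2 and 12.8 for SAP30-KO1, 11.5 and 12.9 for SAP30-KO2, 9.58 and 8.06 for SIN3A+SIN3B-DKO1, 10.2 and 8.44 for SIN3A+SIN3B-DKO2, 10.5 and 11.3 for MLL1-KO1, and 14.7 and 18.8 for MLL1-KO2. It passed in MLL1-KO2, at 0.67 ± 0.13 (SE, adjusted p = 0.00113), where the 2 libraries lay apart, and was 0.50 without MLL1-KO2 replicate 2 and 0.46 with neighbours subtracted. The MLL1-KO lines differed by -0.59 ± 0.13 (adjusted p = 0.00498). DDIT4 was at 170.4 and 177 TPM in parental cells, 203 and 204 for SAP30-KO1, 185 and 192 for SAP30-KO2, 192 and 192 for SIN3A+SIN3B-DKO1, 134 and 100. for SIN3A+SIN3B-DKO2, 251 and 284 for MLL1-KO1, and 164 and 174 for MLL1-KO2. It passed in MLL1-KO1, at 0.62 ± 0.11 (SE, adjusted p = 0.000436), or 0.53 without MLL1-KO1 replicate 2. In SIN3A+SIN3B-DKO2 both libraries were below the parental pair, and the change of -0.58 just missed 1.5-fold. Without SIN3A+SIN3B-DKO2 replicate 1 or parental replicate 1 it was -0.79 or -0.61 and passed. DDIT4 differed between the SIN3A+SIN3B-DKO lines by 0.73 ± 0.11 (adjusted p = 0.00184) and between the MLL1-KO lines by 0.66 ± 0.11 (adjusted p = 0.000533).

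The 4 matrix members modify collagen. P4HA1 and P4HA2 encode catalytic subunits of collagen prolyl hydroxylase, PLOD2 encodes a collagen lysyl hydroxylase, and LOX encodes an enzyme that cross-links collagen. P4HA1 fell in both SIN3A+SIN3B-DKO lines and passed in no other line. It was at 99.6 and 95.5 TPM in parental cells, 106 and 106 for SAP30-KO1, 101 and 108 for SAP30-KO2, 49.01 and 52.3 for SIN3A+SIN3B-DKO1, 47.4 and 48.8 for SIN3A+SIN3B-DKO2, 114 and 122 for MLL1-KO1, and 107 and 108 for MLL1-KO2. The 4 SIN3A+SIN3B-DKO libraries, at 47.4 to 52.3 TPM, were far below the other 10, which were at 95.5 TPM or more. P4HA1 was 1.92-fold lower in SIN3A+SIN3B-DKO1, a log2 change of -0.94 ± 0.05 (SE, adjusted p = 9.69e-08), and 2.02-fold lower in SIN3A+SIN3B-DKO2, at -1.01 ± 0.05 (SE, adjusted p = 8.35e-08). P4HA2 ranged from 30.2 to 69.03 TPM, fell in SIN3A+SIN3B-DKO1 by 0.65, and changed by -0.51 in SIN3A+SIN3B-DKO2. Without SIN3A+SIN3B-DKO1 replicate 1 the first of these was -0.57, under 1.5-fold, and with neighbours subtracted it was -0.50.

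PLOD2 fell in the SIN3A+SIN3B-DKO and MLL1-KO lines. It was at 145 and 142 TPM in parental cells, 104 and 107 for SAP30-KO1, 96.6 and 96.5 for SAP30-KO2, 91.3 and 91.1 for SIN3A+SIN3B-DKO1, 82.004 and 88.7 for SIN3A+SIN3B-DKO2, 85.3 and 86.05 for MLL1-KO1, and 89.1 and 84.7 for MLL1-KO2. All 12 edited libraries were below the parental pair. PLOD2 changed by -0.65 ± 0.04 and -0.75 ± 0.04 in the SIN3A+SIN3B-DKO lines and -0.74 ± 0.04 and -0.72 ± 0.04 in the MLL1-KO lines (SE), with adjusted p values from 6.18e-08 to 4.42e-07. In the SAP30-KO lines the changes were -0.45 and -0.57, and the latter passed without parental replicate 2, at -0.59. With the median of its 51 neighbours subtracted, PLOD2 passed in SIN3A+SIN3B-DKO2 alone, and changed by -0.52, -0.53, and -0.43 in SIN3A+SIN3B-DKO1, MLL1-KO1, and MLL1-KO2. LOX ranged from 27.7 to 33.97 TPM and passed in no line. The histone demethylase KDM3A, which HIF induces, ranged from 31.1 to 62.9 TPM and rose in MLL1-KO2, by 0.65 ± 0.06, with 0.52 in MLL1-KO1.

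The genes of both HIF alpha subunits were lower in the MLL1-KO lines. EPAS1 was at 78.4 and 76.7 TPM in parental cells, 100.1 and 91.7 for SAP30-KO1, 94.2 and 88.5 for SAP30-KO2, 90.9 and 93.1 for SIN3A+SIN3B-DKO1, 72.7 and 70.5 for SIN3A+SIN3B-DKO2, 33.2 and 30.97 for MLL1-KO1, and 20.3 and 21.1 for MLL1-KO2. HIF1A was at 416 and 414 TPM in parental cells, 446 and 443 for SAP30-KO1, 404 and 409 for SAP30-KO2, 337 and 338 for SIN3A+SIN3B-DKO1, 353 and 372 for SIN3A+SIN3B-DKO2, 295 and 293 for MLL1-KO1, and 250.5 and 245 for MLL1-KO2. For both genes the 4 MLL1-KO libraries were below the other 10, and MLL1-KO2 was below MLL1-KO1. EPAS1 was 2.39-fold lower in MLL1-KO1, a log2 change of -1.26 ± 0.05 (SE, adjusted p = 7.47e-09), and 3.68-fold lower in MLL1-KO2, at -1.88 ± 0.05 (SE, adjusted p = 2.66e-10), and the lines differed by 0.62 ± 0.05 (adjusted p = 6.07e-06). HIF1A fell in MLL1-KO2, by -0.74 ± 0.03 (SE, adjusted p = 2.82e-09), while its change of -0.50 in MLL1-KO1 was under 1.5-fold. Thus HIF1A mRNA and EPAS1 mRNA were lower in the same libraries in which NDRG1, SLC2A3, PFKFB3, and PFKFB4 were higher. The other members did not all move that way. In both MLL1-KO lines 8 members rose and 5 fell, the latter being EPAS1, HK2, ALDOC, CA12, and PLOD2. HIF alpha protein, which oxygen controls, was not analysed here.

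Between the lines of a genotype, the members differed most for MLL1-KO. MLL1-KO1 and MLL1-KO2 differed in 10 of 37 members (beside 10.4% of all genes), which were the 4 chromosome 12 genes GAPDH, TPI1, ENO2, and LDHB, and PFKFB3, CA9, CA12, ANKRD37, DDIT4, and EPAS1. The SIN3A+SIN3B-DKO lines differed in CA9, NDRG1, and DDIT4 (2.23% of all genes), all higher in SIN3A+SIN3B-DKO1. The SAP30-KO lines differed in 0 members by limma (0.148% of all genes) and in 0 by limma's voom on recovered reads. By limma, 8 had an unadjusted p and 1 an adjusted p under 0.05, with no log2 difference above 0.27 in size.

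Genotypes were then compared directly, as the mean of both lines of one against the mean of both lines of another, without parental libraries. The SE and p values of these comparisons rest on the spread between libraries within a line. They leave out the spread between the lines of a genotype, and a comparison with lines as units was not made. For CA9 and NDRG1 that spread was large, as the SIN3A+SIN3B-DKO lines differed by 2.1 and 0.81. SAP30-KO and SIN3A+SIN3B-DKO lines, whose targets belong to the same complex, differed in 8 members (beside 7.47% of all genes), and all 8 were higher in SAP30-KO. Of these, 7 belong to the hypoxia class and 1 to the glycolysis class. The differences were 2.66 ± 0.15 for CA9, 1.29 ± 0.05 for CA12, 1.11 ± 0.08 for EGLN3, 1.09 ± 0.03 for P4HA1, 0.97 ± 0.04 for P4HA2, 0.84 ± 0.04 for NDRG1, 0.70 ± 0.04 for PFKFB4, and 0.60 ± 0.03 for BNIP3 (SE), with adjusted p values of at most 1.65e-06. All 14 hypoxia class genes were higher in SAP30-KO than in SIN3A+SIN3B-DKO lines by the sign of the difference, with a median of 0.52, while the median was 0.14 for the glycolysis class and 0.02 for all genes.

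MLL1-KO and SAP30-KO lines differed in 8 members (beside 19.8% of all genes). Higher in MLL1-KO were SLC2A3 by 1.25 ± 0.04, PFKFB3 by 1.14 ± 0.03, NDRG1 by 0.98 ± 0.04, and PFKFB4 by 0.65 ± 0.04. CA12, EGLN3, HIF1A, and EPAS1 were lower in MLL1-KO, at -1.93 ± 0.05, -0.77 ± 0.08, -0.65 ± 0.02, and -1.84 ± 0.04 (SE). The 37 members thus gave a share near that of all genes. MLL1-KO and SIN3A+SIN3B-DKO lines differed in 15 members (beside 19.9%), 13 of them higher in MLL1-KO, led by CA9 at 2.36, NDRG1 at 1.82, and PFKFB3 at 1.65, with CA12 and EPAS1 lower, at -0.64 and -1.64.

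Shares among related members, which do not depend on the scaling between libraries, were compared as a description, and the pairs were chosen after their values were seen. LDHA made up 62.9% and 62.2% of LDHA and LDHB together in parental cells and 72.9% and 72.6% in MLL1-KO2. In MLL1-KO1, where LDHB was high as well, the share was 63.3% and 63.1%. HK2 made up 36.2% and 34.3% of HK1 and HK2 in parental cells, 24.3% and 23.4% for MLL1-KO1, and 21.1% and 21.6% for MLL1-KO2. SLC2A3 made up 8.85% and 9.34% of both transporters in parental cells, against 16.9% and 18.02% and 13.4% and 14.1% in the MLL1-KO lines. The MLL1-KO libraries thus had less HK2 and more SLC2A3 relative to their related member. The HK2 share was also lower in the SAP30-KO libraries, at 27.9% to 30.3%. In the SIN3A+SIN3B-DKO libraries it was 33.15% to 34.7%.

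Other pairs shifted in other lines. EGLN3 was 9.299% and 10.5% of EGLN1 and EGLN3 in parental cells, 19.1% and 22.1% for SAP30-KO1, and 23.2% and 24.5% for SAP30-KO2. In the other edited libraries the EGLN3 share was 10.7% to 15.95%. EPAS1 was 15.9% and 15.6% of both HIF alpha mRNAs in parental cells, 21.3% and 21.6% in SIN3A+SIN3B-DKO1, 10.1% and 9.57% for MLL1-KO1, and 7.503% and 7.93% for MLL1-KO2. In the SAP30-KO and SIN3A+SIN3B-DKO2 libraries the EPAS1 share was 15.93% to 18.9%. PFKP was 78.8% and 78.1% of the 3 phosphofructokinases in parental cells and 66.9% and 67.1% in MLL1-KO2. In all other edited libraries the PFKP share was 72.4% to 75.9%. HIF1A remained the more abundant HIF alpha mRNA and PFKP the most abundant phosphofructokinase mRNA in all 14 libraries.

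**Figure D5:**
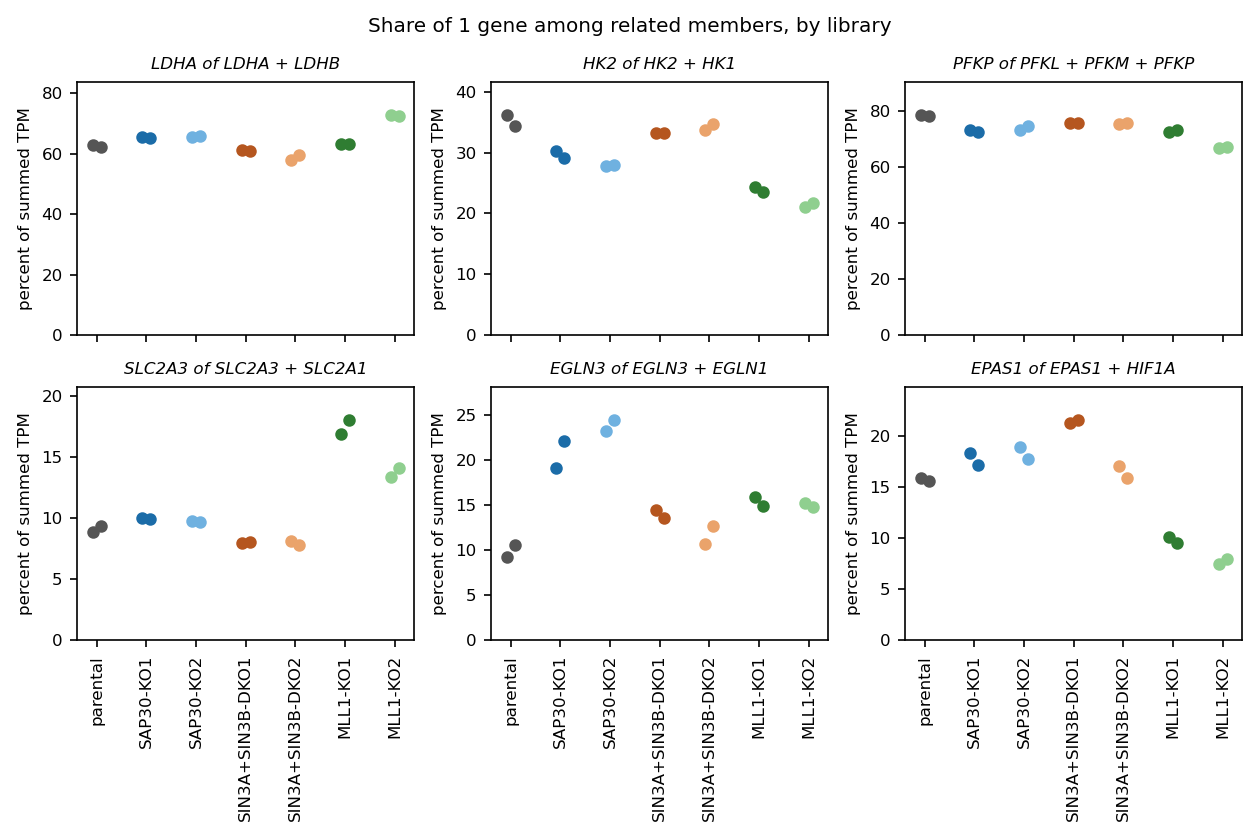
Share of 1 gene in the summed TPM of related members (y axis, percent, from 0), with a point for each of the 14 libraries in 7 groups (x axis). The LDHA share stands highest in MLL1-KO2, the HK2 and EPAS1 shares are lowest in the MLL1-KO lines, the SLC2A3 share is highest in the MLL1-KO lines, and the EGLN3 share is highest in the SAP30-KO lines.

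Further genes of these pathways were taken from a list of 82 genes in the table, of which 69 were tested, 23 of glycolysis and its branches, 34 of the hypoxia response, and 12 of the HIF machinery. In SAP30-KO1, 5 of the 69 rose (7.25%, beside 7.8% of all genes tested) and 2 fell (2.9%, beside 7.86%). In SAP30-KO2, 6 rose (8.7%, beside 7.44%) and 4 fell (5.8%, beside 8.12%). In SIN3A+SIN3B-DKO1, 10 rose (14.5%, beside 7.76%) and 4 fell (5.8%, beside 8.66%), and in SIN3A+SIN3B-DKO2, 6 rose (8.7%, beside 6.0%) and 6 fell (8.7%, beside 7.56%). In MLL1-KO1, 8 rose (11.6%, beside 6.89%) and 13 fell (18.8%, beside 16.3%), and in MLL1-KO2, 15 rose (21.7%, beside 10.2%) and 9 fell (13%, beside 14.9%). The shares that rose in the SAP30-KO lines were thus near the background. The risen counts include SLC16A1 in the SIN3A+SIN3B-DKO lines and HKDC1 and PPFIA4 in the MLL1-KO lines. Libraries in which these genes were high were enough for them to pass the filter on low values. The risen counts in those lines therefore follow in part from the filter. The medians of the 69 were between 0.01 and 0.11 on the log2 scale in the 6 lines, but the lists within them differed. Among the 23 genes of glycolysis and its branches, 8 fell in MLL1-KO1 (34.8%, beside 16.3%) and 3 rose. Their median there was -0.28, beside -0.09 for all genes, and in MLL1-KO2 it was -0.08 beside -0.04. The 34 genes of the hypoxia response had medians of 0.25 and 0.20 in the SAP30-KO lines, beside 0.03 and 0.01. Those medians were 0.09 and 0.004 in the SIN3A+SIN3B-DKO lines and 0.16 and 0.22 in the MLL1-KO lines. VEGFA, the angiogenic growth factor and a HIF target, rose in all lines. It changed by 0.85 and 0.93 in the SAP30-KO lines, 0.81 and 0.59 in the SIN3A+SIN3B-DKO lines, and 1.58 and 1.72 in the MLL1-KO lines, and its level was 72.1 and 73.4 TPM in parental cells and 217 to 248 TPM in the MLL1-KO libraries. STC1, a secreted glycoprotein induced by low oxygen, also rose in all lines, by 1.53 and 1.26, 1.36 and 1.49, and 0.88 and 1.18.

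In the SAP30-KO lines, CXCR4, a chemokine receptor induced by HIF, rose by 1.32 and 1.23, while IGFBP3, which binds insulin-like growth factors, changed by -1.28 and -1.45 and TFRC, the transferrin receptor, by -0.67 and -0.94. In the SIN3A+SIN3B-DKO lines, CXCR4 rose by 0.78 and 1.08, and ANGPTL4, IGFBP3, and PDK4, a kinase of the same family as PDK1, fell, with changes of -1.57 and -0.92, -1.38 and -0.98, and -0.79 and -1.36. The lactate transporter SLC16A1 was at 0.119 and 0.153 TPM in parental cells and at 0.6497 to 1.35 TPM in the SIN3A+SIN3B-DKO libraries, and is given without a test because it passed the filter on low values only through SIN3A+SIN3B-DKO1, where it was highest. In the MLL1-KO lines, HKDC1, which encodes a hexokinase, was higher by 1.35 and 1.26 and PPFIA4, a liprin gene, by 1.76 and 0.66. ANGPTL4, a regulator of lipoprotein lipase, LDHD, a mitochondrial D-lactate dehydrogenase, and ARNT2, a HIF beta subunit, fell there, with changes of -1.32 and -2.48, -1.58 and -1.37, and -1.23 and -1.40. HKDC1 was at 0.829 and 0.851 TPM and PPFIA4 at 0.877 and 0.992 TPM in parental cells, below the 1 TPM of the filter. In the MLL1-KO libraries they were at 2.68 to 3.07 and 1.67 to 4.38 TPM. Their changes are given without a test, because the MLL1-KO libraries alone were enough to pass the filter.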

How the data were processed

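RNA-Seq of 14 libraries was analysed, 2 for each of 7 groups taken from the labels. The authors prepared mRNA libraries and deposited 1 value per gene and library. Their processing notes name FastQC 0.11.2, TopHat, featureCounts, and hg19. The deposited values are named RPKM but are TPM by their properties, since every library sums to 1000000, and the authors did not pool replicates. The test had been planned for length- and depth-normalized values and was kept. Because TPM have a fixed sum, a rise of some genes lowers the others.

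Whole reads were recovered for 18519 of 18519 genes above 0 (100.0%, tolerance 0.02 reads), 18415036 to 23162682 per library, with a median of 21648530. Genes with at least 1 TPM in at least 2 libraries were tested, 13540 of 19410, and 28 gene names turned into dates are not named. Means of the 7 groups of log2(TPM + 0.5) were estimated with limma (version 3.58.1, R version 4.3.3), with a variance trend (7 residual and 3.58 prior degrees of freedom). Adjusted p values are Benjamini-Hochberg values over all genes tested within a comparison, two-sided, and calls needed 0.05 and 1.5-fold. The procedure was tested on simulated data. Counts and plots were made with pandas 2.3.3, numpy 2.4.6, matplotlib 3.10.9, and scipy 1.17.1 under Python 3.11.15.

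The members and lists were chosen with earlier results of these data known. All values are given for members called in both lines of a genotype or different between its lines, for HIF1A, EPAS1, and GAPDH. Of the other pathway genes, at most 3 per direction with the largest mean change among those called in both lines were named for each genotype, and STC1 and VEGFA were then described in all lines. Gene positions are those of GRCh37 with GENCODE annotation, and 12152 tested genes (89.7%) had one. The median change of the 51 tested genes around a gene was subtracted in 1 alternative, which may also remove regulation that neighbours share. The study counts n in biological samples or experiments, but does not say whether the libraries of a group came from separate cultures, so p values measure the spread between libraries. Library pairs differed beyond counting noise, their chi-square divided by its degrees of freedom being 1.47 to 8.003. Intervals cover counting error only. HIF3A was not analysed here.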

Additional observations from a re-analysis of the deposited data

Results flagged for a closer look

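Members whose change differed between the lines of 1 genotype are listed with the difference of the log2 changes, from limma's test of the difference itself, with adjusted p under 0.05 and 1.5-fold. SIN3A+SIN3B-DKO1 was above SIN3A+SIN3B-DKO2 in CA9 by 2.12, in NDRG1 by 0.81, and in DDIT4 by 0.73. MLL1-KO1 was above MLL1-KO2 in TPI1 by 0.72, GAPDH by 0.67, ENO2 by 0.69, LDHB by 0.71, CA9 by 1.77, CA12 by 0.96, DDIT4 by 0.66, and EPAS1 by 0.62. MLL1-KO1 was below MLL1-KO2 in PFKFB3, with a difference of -0.62, and in ANKRD37, with -0.59. The median change of the 51 genes around TPI1, GAPDH, ENO2, and LDHB in MLL1-KO1 was 0.51, 0.45, 0.53, and 0.41, and that in MLL1-KO2 was 0.06, -0.04, 0.12, and -0.14. CA9 had 1 read in each SIN3A+SIN3B-DKO2 library.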

How the results depend on the processing

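Over the 37 members and the 6 lines, other choices were changed with the fold minimum kept at 1.5. Of 2886 values, 2813 kept their side of the threshold, 45 calls were lost, 28 were gained, and 0 reversed. Direction was compared only where a value passed in at least 1 of the settings compared. Values that passed in neither could change sign, as SLC2A1 did in SAP30-KO1, from 0.07 to -0.47 with neighbours subtracted. Without a fold minimum, members lower and higher numbered 5 and 25 for SAP30-KO1, 5 and 22 for SAP30-KO2, 13 and 10 for SIN3A+SIN3B-DKO1, and 20 and 4 in SIN3A+SIN3B-DKO2, with 25 and 22 higher in MLL1-KO1 and MLL1-KO2. The members that differed then numbered 1, 13, and 24 between the lines of SAP30-KO, SIN3A+SIN3B-DKO, and MLL1-KO, 32 between SAP30-KO and SIN3A+SIN3B-DKO, 30 between MLL1-KO and SAP30-KO, and 34 between MLL1-KO and SIN3A+SIN3B-DKO. With a 2-fold minimum, 3 were higher in SAP30-KO1, 1 lower and 3 higher in SAP30-KO2, 1 lower and 0 higher in SIN3A+SIN3B-DKO1, 2 lower in SIN3A+SIN3B-DKO2, 1 lower and 6 higher in MLL1-KO1, and 2 lower and 4 higher in MLL1-KO2. The members that differed were then 1 between the SIN3A+SIN3B-DKO lines, 1 between the MLL1-KO lines, 4 between SAP30-KO and SIN3A+SIN3B-DKO, 4 between MLL1-KO and SAP30-KO, and 7 between MLL1-KO and SIN3A+SIN3B-DKO. With neighbours subtracted, 20 calls were lost and 4 gained. The counts were then 2 lower in SAP30-KO1, 2 lower and 1 higher in SIN3A+SIN3B-DKO1, and 3 lower and 12 higher in MLL1-KO1. Between the MLL1-KO lines, 4 were then different. Median ratio scaling gave 2 lower in SAP30-KO1, voom on recovered reads 1 lower in SAP30-KO2, and a fit of only the libraries compared 1 different between the SIN3A+SIN3B-DKO lines. Leaving out 1 library gave 1 to 2 lower in SAP30-KO1 and 1 to 3 lower in SAP30-KO2, through HK2 and PLOD2. For these counts the fold minimum itself or the smaller fit sets the change, and otherwise the cause was not tested.

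With the replicate number as a block, 0 member calls were lost and 0 gained, so that 15 members still rose in MLL1-KO1. Libraries with the same number did not deviate together: their mean correlation was 0.01 over 21 pairs of groups (-0.07 to 0.08), so the numbers were not taken as pairs. Depth limits CA9 and ALDOC, which have few reads.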
